A study of Homo sapiens with 6 samples.

Results

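Nuclear tRNA genes are the short genes that encode the adaptor RNAs of translation, and their open chromatin was read here from ATAC-seq peaks of Jurkat nuclei. ATAC-seq uses a transposase that cuts and tags accessible DNA, and Jurkat is an established human T-cell leukaemia line. All genes that RefSeq classes as tRNA on chromosomes 1 to 22 and X were taken, each was extended by 200 bp on both sides, and a gene was called open in a library if a peak of that library overlapped the extended gene. The RefSeq table listed 443 such entries. Of these, 14 carry coordinates of scaffolds or patches and could not be placed on the chromosome they are listed under, 13 of them under chromosome 1 and 1 under chromosome 6. The other 429 genes, of 58419 RefSeq genes placed on the same chromosomes, were analysed. They fall into 49 anticodon families and lie on 22 of the chromosomes, with none on chromosome 20. Neither the 22 mitochondrial tRNA entries nor any expression value entered.

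In the simulated microgravity group (SMG 1 to SMG 3), nuclei sat at 37 °C in a random positioning machine, which keeps changing the direction of gravity, for 30 min at 30 degrees per second. In the normal gravity group (NG 1 to NG 3) no rotation is described. Nuclei of both groups came from 50000 Jurkat cells per library, were lysed for 3 min and received transposase for 30 min at 37 °C. The labels do not state whether rotation and transposition ran together, nor how the NG nuclei were kept during those 30 min, so an effect on chromatin and an effect on the tagging reaction cannot be told apart. The rotation acted on isolated nuclei of a single leukaemia line, and nothing in the labels says whether libraries were grown as separate cultures. The p-values below therefore measure only the spread between libraries, which may be technical. The peak lists held 42222, 42399 and 39624 peaks in SMG 1 to SMG 3, against 37782, 43713 and 40601 in NG 1 to NG 3. NG 1 had the fewest peaks and also the lowest median −log10 q-value, at 6.57 against 7.84 to 9.07 in the other 5 libraries. The peak lists hold no read counts, so the sequencing depth is unknown. Each of 9 T-cell marker genes, among them CD3D, CD3E and LCK, had a peak within 1 kb of a gene end in all 6 libraries. None of the 17 marker genes of B cells, myeloid cells, erythroid cells and epithelium did, and 16 of those 17 had no such peak in any library.

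tRNA genes are transcribed by RNA polymerase III from promoter elements inside the gene, the A box and the B box. The factor TFIIIC binds these boxes and brings in TFIIIB (BRF1, BDP1 and TBP), which recruits the polymerase. The human genome carries many copies of most tRNA genes, several of them identical, and many lie in dense clusters, the most extensive on chromosome 6 beside the histone genes and another on the long arm of chromosome 1. In a RefSeq symbol such as TRH-GTG1-3, the letter after TR gives the amino acid, the next 3 letters the anticodon, the number after them the distinct mature tRNA sequence (the isodecoder), and the last number the gene copy that encodes it. Copies can still differ in an intron.

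The internal promoter is shown here in genes that differ in accessibility. RefSeq promoter sequences (GRCh38.p14) contained 14 of the 429 tRNA genes whole. Each is printed 5′ to 3′, with the core of the B box, GTTCNANNC, in capitals. The first pair are identical copies of a histidine tRNA gene and the second pair identical copies of a proline tRNA gene. TRR-ACG2-1 is among the 12 strongest open genes, and the last 2 lie in the chromosome 6 cluster and had no peak.
TRH-GTG1-3: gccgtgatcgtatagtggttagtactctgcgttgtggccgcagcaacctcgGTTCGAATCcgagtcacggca
TRH-GTG1-9: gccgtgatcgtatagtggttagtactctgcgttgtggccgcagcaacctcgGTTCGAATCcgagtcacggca
TRP-TGG3-2: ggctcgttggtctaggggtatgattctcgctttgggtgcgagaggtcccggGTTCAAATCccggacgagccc
TRP-TGG3-5: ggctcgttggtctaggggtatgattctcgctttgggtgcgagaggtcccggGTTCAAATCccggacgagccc
TRR-ACG2-1: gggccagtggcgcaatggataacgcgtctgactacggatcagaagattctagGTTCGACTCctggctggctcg
TRI-AAT8-1: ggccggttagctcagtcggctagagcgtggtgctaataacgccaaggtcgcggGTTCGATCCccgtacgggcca
TRL-AAG2-2: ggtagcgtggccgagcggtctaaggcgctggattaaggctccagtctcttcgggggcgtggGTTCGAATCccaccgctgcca

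The B box core, searched on both strands, was present in all 14 tRNA sequences, which it was used to orient, and in 7.48% of all 35116 RefSeq promoter windows. A longer and stricter consensus of the B box, which overlaps the core, was found in 9 of the 14 and in 0.185% of promoter windows. A strict consensus of the A box was found in 0 of the 14 and in 0.373% of windows, which says only that those letters were not present. The histidine copy TRH-GTG1-3, on the plus strand at chr1:148281365-148281436, had no peak in any library, and the nearest peak lay 37327 bp away. Its identical copy TRH-GTG1-9, at chr15:45201151-45201222, was open in SMG 2 and in NG 2. The proline copy TRP-TGG3-2, at chr14:20684016-20684087, was open in all 6 libraries, whereas TRP-TGG3-5, at chr16:3188094-3188165, was open in SMG 1, SMG 3 and NG 2. Within each pair the 72 gene bases had 0 differences. Copies with the same sequence thus differed in how many libraries held a peak. Each copy lies in the promoter window of a different gene. These are LINC01731 for TRH-GTG1-3, SHF for TRH-GTG1-9, ANG for TRP-TGG3-2 and OR1F1 for TRP-TGG3-5. Whether the peaks belong to those genes was not tested, nor was the part of read mapping at identical copies.

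A minority of the tRNA genes stood in open chromatin throughout. A peak was present in all 6 libraries at 113 of the 429 genes (26.3%), in 1 to 5 libraries at 67 (15.6%), and in none at 249 (58.0%). For orientation, 4.89% of the 3250 other short RNA genes (miRNA, snoRNA and snRNA genes, extended the same way) were open in all 6. Of the 67151 regions obtained by merging the peaks of all libraries, 34.7% held a peak in all 6. These regions hold a peak in some library by construction, so their share is not like for like with that of all 429 genes. Of the 180 tRNA genes open in any library, 113 were open in all 6. Of the 284 other short RNA genes open in any library, 159 were. Signal under the calling threshold is not in the lists, so a gene without a peak may still be accessible, and a peak does not show that the tRNA is transcribed.

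The number of open tRNA genes was 150, 147 and 155 in SMG 1 to SMG 3, against 123, 155 and 146 in NG 1 to NG 3. NG 1 was the lowest of the 6, NG 2 equalled the highest SMG library, and the groups overlapped. The mean was 150.7 ± 4.04 in SMG and 141.3 ± 16.5 in NG (SD, n = 3 each), a difference of 9.33 genes (exact permutation test, two-sided, p = 0.5, where the smallest p that 3 against 3 libraries allow is 0.1). As a share of the 429 genes this was 35.1 ± 0.942% in SMG and 32.9 ± 3.85% in NG. Without NG 1, the library with the fewest peaks, the means were 150.7 in SMG and 150.5 in NG. Without NG 2 they were 150.7 and 134.5 (exact permutation test, two-sided, p = 0.1). With the same number of peaks taken from each library, the difference was 10.0 genes (exact permutation test, two-sided, p = 0.4). Why NG 1 was low was not tested. In a bulk library, fewer nuclei with an open gene and less signal per nucleus cannot be told apart.

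**Figure D1:**
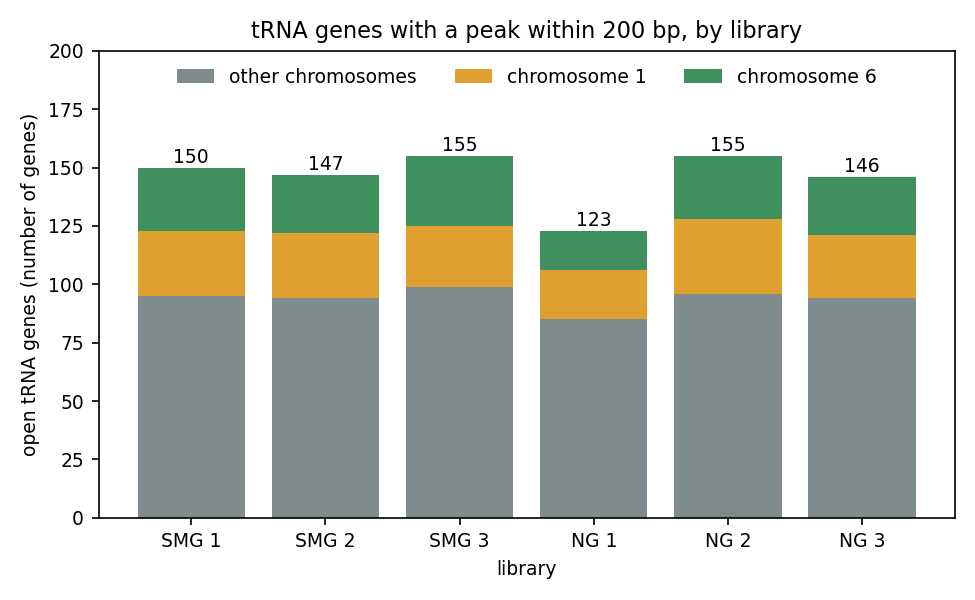
Each bar is a library, SMG 1 to SMG 3 on the left and NG 1 to NG 3 on the right, and its height is the number of tRNA genes with a peak within 200 bp, split by chromosome. SMG libraries reach 147 to 155 genes and NG libraries 123 to 155, and chromosomes other than 1 and 6 give most of each bar.

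The strength of a peak was read as its percentile by −log10 q-value among all peaks of its own library, since the scores themselves differ between libraries. At the 113 genes open in all 6 libraries, the strongest overlapping peak averaged a percentile of 75.4, 77.9 and 82.6 in SMG 1 to SMG 3, against 75.8, 80.3 and 77.5 in NG 1 to NG 3. The groups overlapped, with means of 78.6 ± 3.62 in SMG and 77.8 ± 2.25 in NG (SD, n = 3 each), a difference of 0.784 points (exact permutation test, two-sided, p = 0.7). The median gene of the 113 had a mean percentile of 77.7 and a mean fold enrichment over the local background of 7.63, by the authors' peak caller. The 67 genes open in 1 to 5 libraries had a median percentile of 34.9 and a median fold of 4.56, although some had strong peaks, such as TRX-CAT1-7 and TRA-AGC8-2 described below. Regions of any kind with a peak in all 6 libraries had a median percentile of 68.6, and the other short RNA genes open in all 6 had 83.4.

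The strongest peaks at the constantly open tRNA genes were broader than the median peak of their library. Their median width was 1000, 993 and 1010 bp in SMG 1 to SMG 3, against 807, 1020 and 987 bp in NG 1 to NG 3, whereas the median over all peaks of a library was 424 to 487 bp. The genes were chosen for a peak in all 6 libraries, and widths of other regions with such a peak are not given here. A tRNA gene itself has a median length of 73 bp. The summit of the peak fell inside the gene at 16 of the 113 genes in each SMG library, and at 17, 9 and 14 in NG 1 to NG 3. It lay within 100 bp of the gene for 49.6 to 56.6% of these genes. A peak often served several genes: of the 97 to 122 peaks that were the strongest at an open tRNA gene in a library, 24 to 31 did so for more than 1 gene, and up to 4 genes shared the same peak. Neighbouring genes are therefore not independent observations.

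The strongest tRNA genes ranked among the top few percent of all peaks in every library. TRS-TGA1-1 (chr10:67764503-67764584), which encodes a serine tRNA, stood at percentiles 97.6, 98.5 and 99.7 in SMG 1 to SMG 3, against 98.6, 98.4 and 98.6 in NG 1 to NG 3. Its fold enrichment was 11.0, 12.1 and 12.8 in SMG and 12.3, 11.9 and 12.1 in NG. The groups overlapped in both values. TRL-TAA1-1 (chr6:144216547-144216629), a leucine gene on chromosome 6 far from the tRNA cluster of that chromosome, stood at 98.5, 99.4 and 99.0 in SMG, against 99.7, 97.5 and 97.5 in NG. The arginine gene TRR-ACG2-1 (chr3:45688999-45689071), printed above, stood at 96.7, 97.7 and 97.9 in SMG, against 96.3, 97.9 and 97.1 in NG. All 3 genes lay outside the clusters.

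The other 9 of the 12 highest genes had mean percentiles of 97.3 to 98.4. TRD-GTC2-8 (aspartate) lies within LTA4H, a leukotriene-pathway gene, and TRR-ACG1-3 (arginine) within PRMT5-DT, a long noncoding RNA gene that runs divergently from PRMT5. TRL-CAA4-1 and TRE-CTC2-1 share a peak within PGBD2, TRA-AGC8-1 and TRY-GTA2-1 share a peak within AGBL5, and TRL-CAG2-1 and TRL-CAG2-2 share a peak on chromosome 16. TRE-TTC2-1 on chromosome 13 completes the list. At the other end of the 113, TRT-AGT2-1 (44.2), TRP-TGG1-1 (44.6), TRF-GAA1-6 and TRN-GTT2-6 on a shared peak (46.8 each), TRH-GTG1-1 (47.4) and TRK-CTT2-2 (49.2) had the lowest mean percentiles. Near the bottom, TRK-CTT2-2 stood at 10.5, 46.7 and 67.6 in SMG 1 to SMG 3, against 43.7, 72.7 and 54.1 in NG 1 to NG 3, with overlapping groups.

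**Figure D2:**
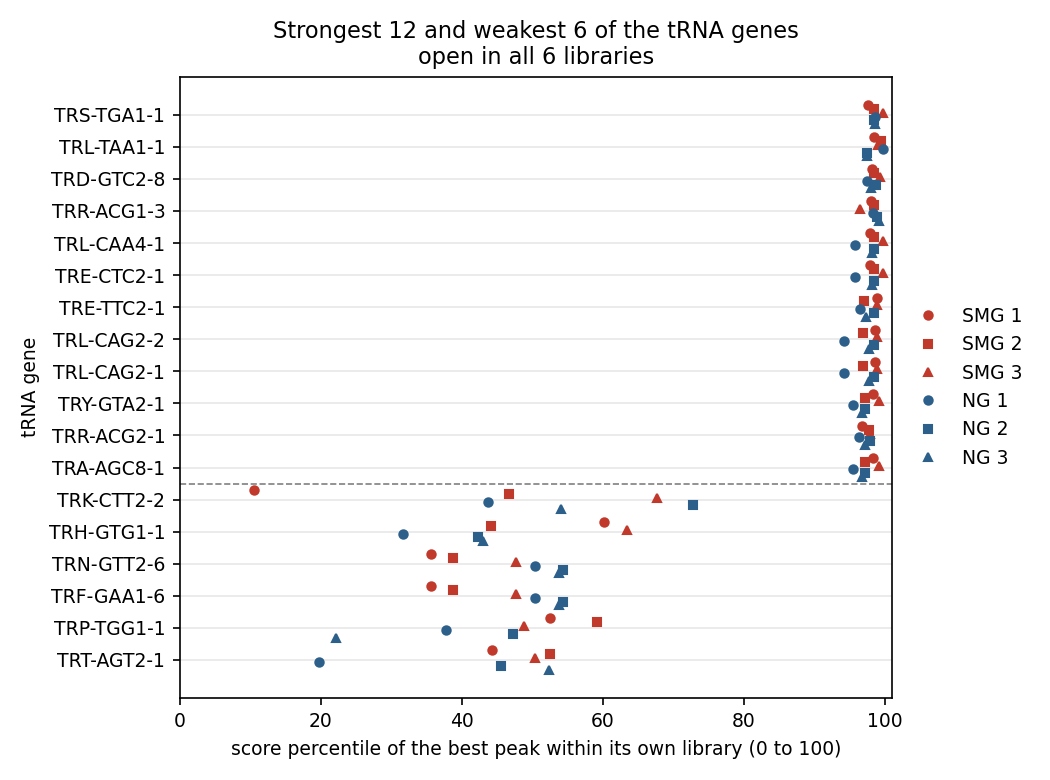
Each point is the score percentile (0 to 100, within its own library) of the strongest peak at a tRNA gene in a library, for the 12 highest genes (above the dashed line) and the 6 lowest (below it) of the 113 genes open in all 6 libraries. Within a gene, SMG 1 to SMG 3 lie above NG 1 to NG 3. The points of the high genes lie close together, and those of TRK-CTT2-2 run from 10.5 to 72.7.

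Nearly every anticodon family kept at least 1 gene open in all libraries. This held for 47 of the 49 families, and each of the 6 libraries had an open gene in 47 families. For 13 families a single gene filled this place. The families without a peak at any gene in any library were TRI-GAT, with 3 genes on chromosome X, and TRY-ATA, the only family with a single gene. TRY-ATA1-1 lies at chr2:218245826-218245918 within ARPC2, which encodes a subunit of the actin-nucleating Arp2/3 complex, 11807 bp from the nearest peak. In 2 families, TRP-CGG and TRR-CCT with 4 genes each, every gene had a peak in some library.

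The largest families did not have the most open genes. Among the families with at least 8 genes, the cysteine family TRC-GCA was the largest, with 29 genes, of which 3 were open in all 6 libraries and 23 in none. It was followed by the alanine family TRA-AGC, with 1 of 25 genes open in all 6 and 22 in none. The asparagine family TRN-GTT had 2 of 21 open in all 6 and 17 in none. By contrast, the aspartate family TRD-GTC had 6 of 13 open in all 6, the most of any family.

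Among the other families with at least 8 genes, 6 had 4 genes open in all 6 libraries. They were TRE-CTC (of 8 genes), the initiator methionine family TRX-CAT (of 8), TRG-TCC (of 9), TRT-AGT (of 9), TRK-TTT (of 13) and TRV-CAC (of 15). Families of this size with 3 such genes were TRL-CAG, TRH-GTG and TRP-AGG (of 9 each), TRS-AGA (of 10), TRF-GAA (of 11), TRY-GTA (of 12), TRG-GCC (of 13) and TRI-AAT (of 15). Families of this size with 2 were TRG-CCC, TRA-TGC and TRS-GCT (of 8 each), the elongator methionine family TRM-CAT (of 11), TRQ-CTG (of 13) and TRK-CTT (of 14). TRL-AAG (of 9) and TRV-AAC (of 10) had 1 each. Summed by amino acid, the share of genes open in all 6 ran from 9.52% of 21 asparagine genes, 10.3% of 29 cysteine genes and 10.8% of 37 alanine genes to 45.0% of 20 threonine genes, 46.2% of 13 aspartate genes and 50.0% of 20 proline genes.

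**Figure D3:**
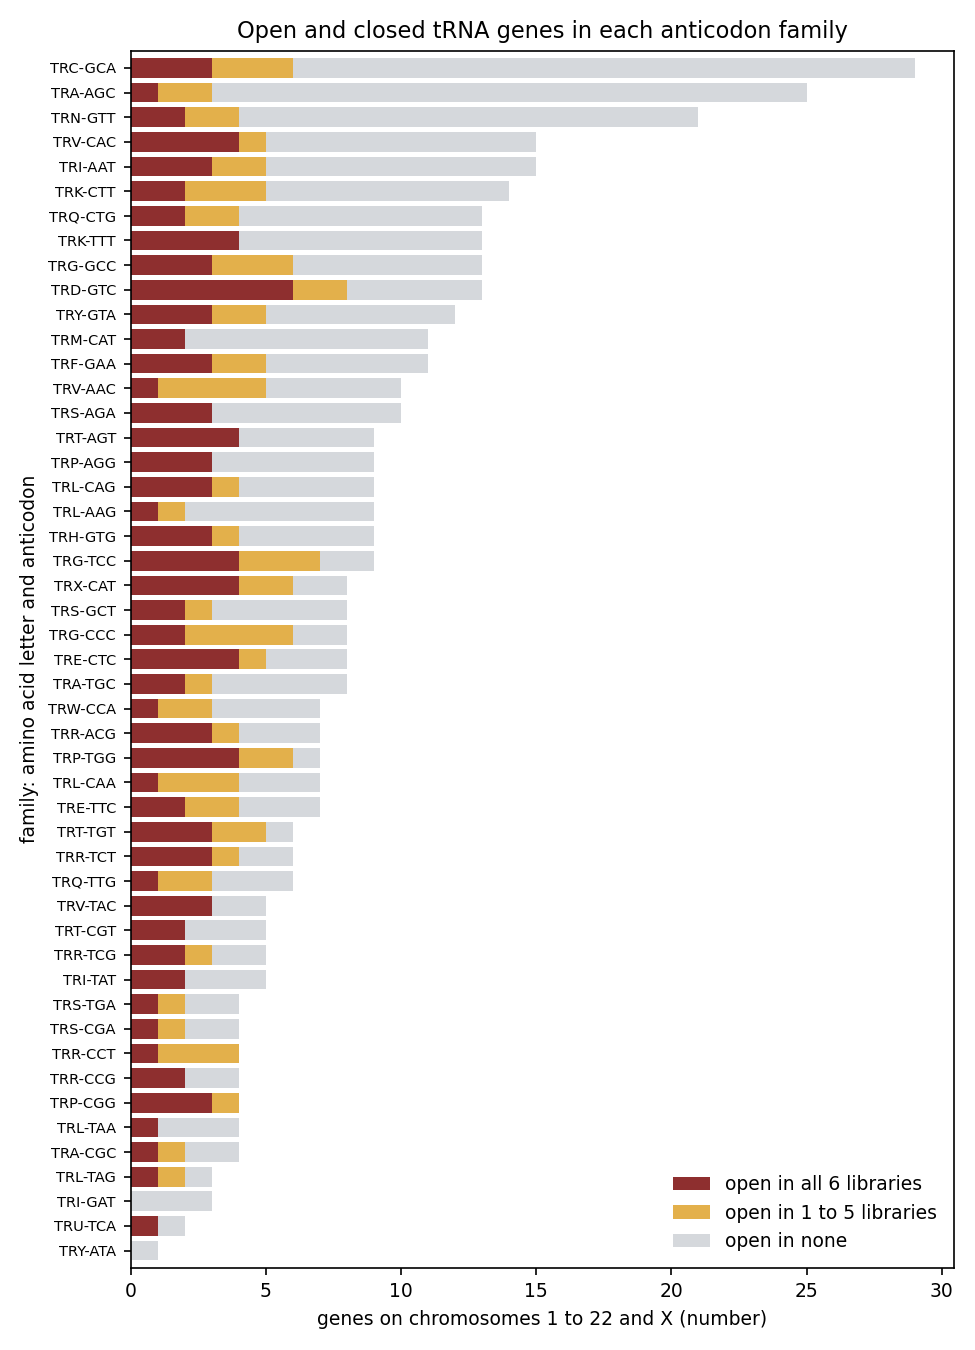
Each bar is an anticodon family, its length the number of genes on chromosomes 1 to 22 and X, split into genes open in all 6 libraries, in 1 to 5 and in none. The longest bars, TRC-GCA (29 genes) and TRA-AGC (25 genes), are mostly genes open in none, and only TRI-GAT and TRY-ATA have no open gene at all.

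The 3 large families with few open genes each had most of their genes in a single cluster or on a single chromosome. Of the TRC-GCA genes, 18 lie in the chromosome 7 cluster, where 0 were open in all 6 and 16 in none, while 3 of 5 in a chromosome 17 cluster were open in all 6. Of the TRA-AGC genes, 19 lie in the main chromosome 6 cluster, 18 of them open in none. Of the TRN-GTT genes, 17 lie on chromosome 1, among its 85 tRNA genes. The chromosome 7 cluster has only 19 tRNA genes, so its count and that of TRC-GCA are largely of the same genes. Family and location were not separated.

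Between SMG and NG, family counts moved little. Among the 45 families with at least 4 genes, 21 had more open genes on average in SMG, 4 had more in NG and 20 were equal. The groups did not overlap in 1 family, the alanine family TRA-CGC, with 2, 2 and 2 open genes of 4 in SMG, against 1, 1 and 1 in NG (exact permutation test, two-sided, p = 0.1, the smallest this design allows, and 1 after Benjamini-Hochberg adjustment over the 45 families). Its difference is the gene TRA-CGC1-1 described below. NG 1, the library with the fewest peaks, was also the lowest in the total. Without NG 1 the number of families whose groups did not overlap was again 1. The part of NG 1 in the counts of 21 and 4 families was not tested.

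The initiator methionine tRNA starts every protein chain, and its 8 genes, TRX-CAT1-1 to TRX-CAT1-8, share an isodecoder number. The copy TRX-CAT1-1 (chr1:153671250-153671321) was the strongest, with percentiles of 94.0, 89.6 and 98.0 in SMG 1 to SMG 3, against 94.6, 96.1 and 94.5 in NG 1 to NG 3. TRX-CAT1-8 (chr17:82494721-82494792) followed among the copies outside chromosome 6, with 77.4, 70.9 and 62.3 in SMG, against 80.9, 73.7 and 83.2 in NG. The groups overlapped at both genes. The 6 copies in the main chromosome 6 cluster ranged from open in all 6 libraries (TRX-CAT1-3 and TRX-CAT1-6, mean percentiles 55.2 and 54.9) to no peak at all (TRX-CAT1-4 and TRX-CAT1-5, 2008 and 19937 bp from the nearest peak). In between, TRX-CAT1-7 was open in 5 libraries, all but NG 2, with percentiles of 74.8, 74.1 and 84.8 in SMG, against 71.8 and 84.1 in NG 1 and NG 3. TRX-CAT1-2 was open in SMG 2 at 4.64 and in NG 2 at 4.78, near the bottom of each list.

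Selenocysteine is inserted at certain UGA codons by a dedicated tRNA, and RefSeq lists 2 genes for it. TRU-TCA1-1 (chr19:45478601-45478687) was open in all libraries, at percentiles 64.0, 67.2 and 80.0 in SMG 1 to SMG 3, against 91.4, 81.0 and 76.3 in NG 1 to NG 3. The groups overlapped, since SMG 3 lay above NG 3. TRU-TCA2-1 (chr22:44150657-44150740), within PARVB, had no peak in any library, and the nearest peak was 13260 bp away.

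Copies that encode the same mature tRNA often differed in their peaks. How reads that match several copies were handled is not stated, and the part of read mapping in these differences was not tested. The numbered names give 256 isodecoders, 57 of them with 2 or more copies. In 29 of the 57, some copies were open in all 6 libraries and others in none. All copies were open in all 6 libraries in 3 isodecoders (TRG-CCC2, TRL-CAG2 and TRV-TAC1), and no copy was open in any library in 11. The aspartate isodecoder TRD-GTC2 had 5 of its 11 copies open in all 6 and 4 in none, TRP-AGG2 had 3 of 8 and 5 of 8, and TRN-GTT2 had 2 of 8 and 5 of 8. Genes of isodecoders with several copies were open in all 6 in 35.1% of 222 cases, and genes of isodecoders with a single copy in 17.6% of 199.

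The number in the name carried a gradient. tRNA gene names number isodecoders in the order of a score for how well the sequence fits a canonical tRNA, so that a high number marks a poorer score. Of the 116 genes of isodecoder number 1, 37.9% were open in all 6 libraries, of the 198 genes numbered 2 to 4, 30.8%, and of the 107 genes numbered 5 or more, 7.48%. Outside chromosomes 1 and 6 the shares were 50.0% of 56, 47.8% of 90 and 18.2% of 44. Many of those 44 genes belong to the cysteine family TRC-GCA, whose genes numbered 5 or more were never open in all 6 libraries. The shares without that family were not computed. Genes of a family share sequence and often a cluster, so these shares are given as a description.

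The open share also differed by chromosome. On chromosome 6, 17.5, 16.2 and 19.5% of the 154 genes were open in SMG 1 to SMG 3, against 11.0, 17.5 and 16.2% in NG 1 to NG 3. On chromosome 1, 32.9, 32.9 and 30.6% of the 85 genes were open in SMG, against 24.7, 37.6 and 31.8% in NG. On the other chromosomes, 50.0, 49.5 and 52.1% of the 190 genes were open in SMG, against 44.7, 50.5 and 49.5% in NG.

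The order of chromosome 6, chromosome 1 and the rest was the same in all 6 libraries. Over the 6 libraries, chromosome 6 averaged 16.3 ± 2.86% and the other chromosomes 49.4 ± 2.48% (SD, n = 6), a difference of -33.0 points. Chromosome 1 averaged 31.8 ± 4.21%, which differed from the other chromosomes by -17.6 points. Chromosome 6 differed from chromosome 1 by -15.4 points. Each difference had the same sign in 6 of 6 libraries (exact sign-flip permutation test over libraries, two-sided, p = 0.0312 each, the smallest it allows, and 0.0312 after adjustment over the 3 contrasts). These tests take libraries of the same cell line as units and speak of that line's libraries only. The part of read mapping at repeated gene copies in the lower shares of chromosomes 1 and 6 was not tested.

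Within each location the groups overlapped. Chromosome 6 had 27, 25 and 30 open genes in SMG 1 to SMG 3, against 17, 27 and 25 in NG 1 to NG 3, a difference of 4.33 (exact permutation test, two-sided, p = 0.5, adjusted 0.75). Chromosome 1 had 28, 28 and 26 in SMG, against 21, 32 and 27 in NG, a difference of 0.667 (exact permutation test, p = 0.8, adjusted 0.8). The other chromosomes had 95, 94 and 99 in SMG, against 85, 96 and 94 in NG, a difference of 4.33 (exact permutation test, p = 0.5, adjusted 0.75). NG 1 was the lowest library in all 3 locations. Without it the difference was 1.33 on chromosome 6, -2.17 on chromosome 1, where its sign turned, and 1.0 on the other chromosomes.

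Clusters were defined as runs of at least 5 tRNA genes with less than 500 kb between neighbours, which gave 15 clusters with 309 genes. In clusters 17.8% of genes were open in all 6 libraries, with a median percentile of 66.9, whereas outside clusters 48.3% of 120 genes were, with a median percentile of 91.9.

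The main chromosome 6 cluster (chr6:26286526-28989083 on hg38) spans 2.7 Mb and holds 144 tRNA genes of 38 families. Of these genes, 14 were open in all 6 libraries and 111 in none. The open number per library was 25, 23 and 28 in SMG 1 to SMG 3, against 15, 25 and 23 in NG 1 to NG 3. NG 1 was again lowest, and the other NG libraries fell within or at the edge of the SMG range. The 14 open genes came from 12 families, led by the isoleucine gene TRI-AAT2-1 at a mean percentile of 84.7 and followed by the glycine gene TRG-GCC2-3 at 77.1. Initiator methionine (TRX-CAT1-3 and TRX-CAT1-6) and serine (TRS-AGA2-2 and TRS-AGA2-4) supplied 2 genes each.

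Of the 111 tRNA genes without a peak there, 75 lay over 10 kb from any peak of any library, and the distance ran from 302 bp to 142 kb with a median of 21.6 kb. As a whole the cluster held 58 merged regions with a peak in all 6 libraries, or 21.5 per Mb, against 7.75 per Mb on chromosome 6 as a whole, and 38 of its 53 protein-coding genes overlapped a peak in all 6. Cut into 4 stretches of equal length, the cluster had 5 of 44, 6 of 42, 3 of 15 and 0 of 43 tRNA genes open in all 6. The third stretch, with the fewest tRNA genes, held 16 histone genes, 13 of them open in all 6 libraries. The fourth stretch (chr6:28313444-28989083) had 37 of 43 tRNA genes without a peak in any library, and 5 merged regions with a peak in all 6. The peak lists also held 175 to 251 peaks in SMG and 118 to 204 in NG on alternative chromosome 6 contigs, which carry copies of parts of this chromosome. Their part in the low count at these genes was not tested. A second chromosome 6 cluster of 6 genes (chr6:57800211-57856473) had no peak at all.

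On chromosome 1 the largest cluster (chr1:161399700-161612029) holds 32 genes of 9 families, mainly of the glycine, aspartate, glutamate and leucine type. Of these, 8 were open in all 6 libraries and 17 in none, with 13, 14 and 12 open in SMG 1 to SMG 3, against 10, 14 and 12 in NG 1 to NG 3. The groups overlapped. Clusters with no open gene in any library were those at chr1:145129239-145475454 (6 genes) and chr1:148032790-148529330 (7 genes, TRH-GTG1-3 among them), although 4 and 6 merged regions with a peak in all 6 libraries lay in the same spans. The cluster at chr1:16520585-16889750 had 3, 2 and 3 of 8 genes open in SMG, against 0, 5 and 3 in NG, and no gene there was open in all 6.

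The open share of clusters on other chromosomes varied widely. The chromosome 17 cluster at chr17:8119155-8227064 had 18 genes of 14 families, 10 of them open in all 6 libraries, with 12, 11 and 12 open in SMG 1 to SMG 3, against 11, 11 and 11 in NG 1 to NG 3. In the chromosome 12 cluster (chr12:124921755-124940037), 4 of 5 genes were open in all 6 and the remaining gene in some. The chromosome 5 cluster (chr5:181097070-181222467) had 6 of 17 genes open in all 6. The chromosome 7 cluster (chr7:149310190-149707740), mostly cysteine genes, had 17 of 19 genes without a peak in any library, and its open genes numbered 1, 0 and 0 in SMG, against 0, 2 and 0 in NG.

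**Figure D4:**
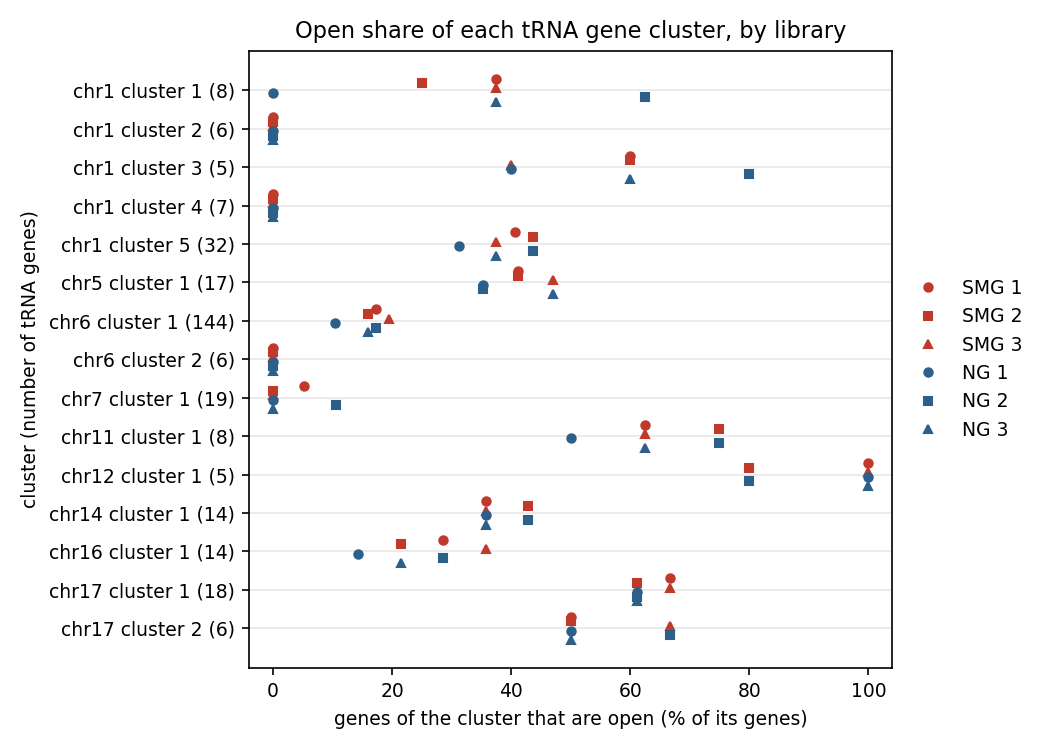
Each line is a tRNA gene cluster with its number of genes, and each point is the percent of its genes that were open in a library, SMG 1 to SMG 3 above NG 1 to NG 3. The chromosome 12 and chromosome 17 clusters lie to the right, the main chromosome 6 cluster and the chromosome 7 cluster to the left, and the SMG and NG points overlap in every line.

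Open tRNA genes lay closer to other genes. A protein-coding or long noncoding gene began or ended within 1 kb of 42.5% of the 113 genes open in all 6 libraries, of 28.4% of the 67 genes open in 1 to 5, and of 12.9% of the 249 genes open in none. Read the other way, 48.5% of the 99 tRNA genes with such a neighbour were open in all 6, against 19.7% of the 330 without. Whether a peak at such a gene belongs to the neighbour was not tested. Of the 249 genes open in none, 142 lay over 10 kb from any peak of any library, the median distance was 13.5 kb, and 21 had a peak within 1 kb, the closest at 254 bp.

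Compared with other short RNA genes, tRNA genes were open far more often than miRNA and snoRNA genes. With the same extension, tRNA genes were open in 35.0, 34.3 and 36.1% of cases in SMG 1 to SMG 3, against 28.7, 36.1 and 34.0% in NG 1 to NG 3. The 1911 miRNA genes were open in 5.65 to 7.06% and the 1190 snoRNA genes in 2.27 to 2.94% per library. The difference averaged 27.8 points from miRNA genes and 31.4 points from snoRNA genes, positive in 6 of 6 libraries (exact sign-flip permutation test, two-sided, p = 0.0312 each, the smallest it allows). The 149 snRNA genes, which encode spliceosomal and other nuclear RNAs, were open in 37.6 to 39.6%, and tRNA genes lay -4.67 points from them (exact sign-flip permutation test, p = 0.0312). That last difference depended on the extension and reversed to 1.06 points with 1000 bp on both sides (exact sign-flip permutation test, p = 0.312).

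**Figure D5:**
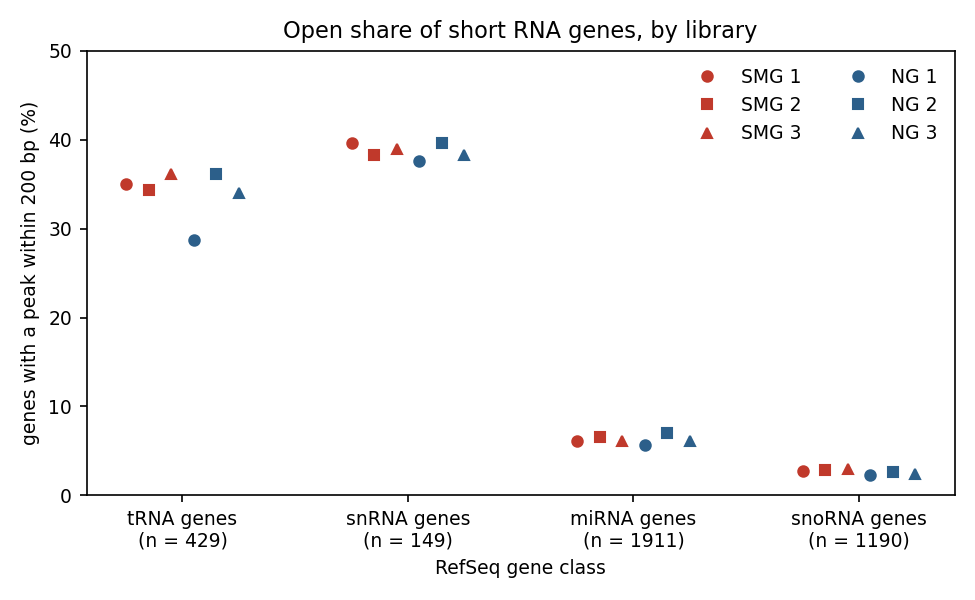
Each point is the percent of genes of a RefSeq class with a peak within 200 bp in a library, SMG 1 to SMG 3 left of NG 1 to NG 3 within each class. tRNA and snRNA genes lie between 28.7 and 39.6%, and miRNA and snoRNA genes lie at or under 7.06%.

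Few tRNA genes separated the groups. Only TRA-CGC1-1 was open in all 3 SMG libraries and no NG library, which makes 1 gene, and 0 genes showed the opposite pattern. Over merged regions the same patterns occurred in 0.399% (SMG) and 0.267% (NG) of 67151, and over the other short RNA genes in 0.0923% and 0.0308% of 3250. All merged regions hold a peak in some library, whereas only 180 of the 429 tRNA genes do, so these shares are not like for like. A single gene is too few to set apart from them. Among the 180 genes open anywhere, 37 (20.6%) were open in more SMG libraries, 13 (7.22%) in more NG libraries and 130 in equal numbers. Of the 284 other short RNA genes open anywhere, 20.1% had a peak in more SMG and 17.6% in more NG libraries, and of the merged regions 28.1% and 27.2%. Without NG 1, 28 genes were open in a larger share of SMG libraries and 29 in a larger share of NG libraries. With any other library left out, the counts were 38 to 48 and 15 to 21. Such counts compare shares of 3 libraries against 2, so they are not like for like with 37 and 13. Of the 16 genes missing in exactly 1 library, 10 were missing in NG 1.

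TRA-CGC1-1 (chr6:26553503-26553574), an alanine gene in the main chromosome 6 cluster, had peaks at percentiles 38.2, 50.4 and 50.3 in SMG 1 to SMG 3, with fold enrichments of 4.0, 4.5 and 4.07, and none in NG. In NG the nearest peaks lay 2603, 354 and 218 bp away, and in SMG 2 the peak itself lay 187 bp away. The distances of NG 3 and SMG 2 thus fell on opposite sides of the 200 bp limit by less than 20 bp each. With an extension of 500 bp or a required overlap of 50 bp, no gene was open in all SMG and no NG libraries. With an extension of 0 bp, the difference at TRA-CGC1-1 fell to 2 libraries and that at TRT-TGT1-1, described below, rose to 3. With equal numbers of peaks, TRG-TCC3-1 had a difference of 3 as well as TRA-CGC1-1.

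The numbers of open SMG and NG libraries differed by 2 or more at 4 other genes in favour of SMG and 2 in favour of NG, which with TRA-CGC1-1 gives 5 against 2 of 429. Over the 3250 other short RNA genes 0.462% (15 genes) leaned to SMG in this way and 0.185% (6 genes) to NG. Those shares count genes that were never open. Among genes open anywhere the lean to SMG was 5 of 180 tRNA genes against 15 of 284 others. To NG it was 2 of 180 against 6 of 284, so the tRNA share was the lower one in both directions. TRQ-TTG3-3 (chr6:27795861-27795932, glutamine) was open in SMG 1 at percentile 29.8 and in SMG 2 at 41.7, and in no NG library. TRT-TGT1-1 (chr6:28474552-28474625, threonine) was open in SMG 1 to SMG 3 at 2.82, 31.3 and 39.2, and in NG 3 at 10.1. TRG-TCC3-1 (chr17:8221548-8221619, glycine) was open in SMG 1 to SMG 3 at 21.0, 26.5 and 78.4, and in NG 2 at 7.69. These were weak peaks in most libraries.

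TRA-AGC8-2 (chr8:66114189-66114261, alanine) was the exception in strength, with percentiles of 94.6, 96.7 and 98.2 in SMG 1 to SMG 3, and 96.5 in NG 3. In NG 1 and NG 2 the nearest peaks lay 296 and 336 bp away, outside the 200 bp limit. In the NG direction, TRK-CTT2-1 (chr1:146039401-146039473, lysine) was open in NG 2 at 2.50 and in NG 3 at 33.5 and in no SMG library. TRW-CCA3-3 (chr17:8186358-8186429, tryptophan) was open in NG 1 at 61.0 and in NG 3 at 68.7, where the peaks lay 130 and 152 bp away. In SMG 1 to SMG 3 the nearest peaks to it lay 261, 254 and 202 bp away. At TRA-AGC8-2 and TRW-CCA3-3 every library had a peak within 336 bp, and the 200 bp limit set which of them counted as open.

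Genes of the transcription and processing machinery of tRNA were mostly open at a gene end. Of 41 listed genes, 34 had a peak within 1 kb of a gene end in all 6 libraries, against 47.0% of the 19821 protein-coding genes. The number with such a peak was 37, 37 and 36 in SMG 1 to SMG 3, against 35, 39 and 37 in NG 1 to NG 3, with overlapping groups (difference -0.333, exact permutation test, two-sided, p = 1). Among the polymerase III subunits, POLR3G stood at a mean percentile of 98.2, POLR3E at 95.0 and POLR3K at 93.9. TBP, shared by all nuclear polymerases, stood at 96.2 and the TFIIIB subunit BDP1 at 69.4, whereas BRF1 had such a peak in NG 2 only. The TFIIIC subunits GTF3C1 and GTF3C3 stood at 86.5 and 87.3, and GTF3C4 was the lowest at 42.1. MAF1, the repressor of polymerase III, stood at 84.3.

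Among the processing factors, the RNase P subunit RPP40 was the highest of the list at 98.6, and the export receptor XPOT stood at 88.0. TSEN34, a subunit of the tRNA splicing endonuclease, had a gene-end peak in NG 2 only. RPP25, an RNase P protein, had a weak peak in 3 SMG libraries at 20.3, 26.0 and 28.6, and in NG 2 at 14.1. POLR2H was missing in SMG 3, GTF3A in NG 1, and POLR2L was found in NG 3 only.

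Most of a short list of other RNA polymerase III genes were also open. Of 18 listed, 14 were open in all 6 libraries with the same 200 bp extension. The share was 35.6% of the 149 snRNA genes, some of them on this list, and 4.89% of the 3250 other short RNA genes. The 18 genes were chosen by name, so their count does not stand for polymerase III genes in general. RPPH1, the RNA of RNase P, which trims the 5′ end of tRNA precursors, had the highest mean percentile, 99.1, followed by RN7SL2 (98.2), which encodes signal recognition particle RNA, and RN7SK (97.7), the regulator of transcription elongation. The U6 gene RNU6-2 stood at 88.9, RMRP at 86.3 and the Y RNA gene RNY3 at 49.4. RNY4 was open in SMG 3 only, and the vault RNA genes VTRNA1-2, VTRNA1-3 and VTRNA2-1 in no library, while VTRNA1-1 was open in all 6 at a mean of 66.3.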

How the data were processed

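ATAC-seq peaks of 3 SMG and 3 NG libraries of Jurkat nuclei were used as deposited, in 1 list of 10 columns per library. FastQC, BWA, Bowtie, SAMtools and MACS2 are named, with build hg38, in the submitters' processing notes. Their versions and settings, the treatment of duplicate reads and the shift for transposase cuts are not stated there. The authors' peak caller gave each peak a score, a fold enrichment (a linear ratio over local background), a −log10 p-value and a −log10 q-value, and the deposited peak names show that each library was called separately. Names in the SMG 3 list carry the word "normalized", whose meaning is not given.

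Gene positions came from RefSeq (GRCh38.p14, the assembly of hg38). An overlap of 1 bp with the gene extended by 200 bp counted as open. Only ranks within a library were compared, because score and −log10 q-value move with depth. Groups were compared by exact permutation over the 20 splits of 6 libraries, and locations or gene classes by exact sign-flips over libraries, with Benjamini-Hochberg adjustment within a family of tests and a threshold of 0.05 (Python 3.11.15, numpy 2.4.6, pandas 2.3.3). The procedure was tested on simulated data. The members, lists and contrasts were chosen with earlier results of these data known. Named genes were those of 1 group only, those differing by 2 or more libraries, the 12 highest and 6 lowest, families with at least 8 genes or no open gene, initiator methionine and selenocysteine genes, and listed polymerase III genes, of which 1 is not reported here. Alternatives were extensions of 0, 500 and 1000 bp, an overlap of 50 bp, a −log10 q-value of at least 5, equal numbers of peaks, each library left out, the replicate numbers as a block, tRNA genes with no gene end within 1 kb, and all 443 entries as listed. The last, and all alternatives for location contrasts, gene classes, larger-share counts and single genes, were added after seeing the data.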

Additional observations from a re-analysis of the deposited data

How the results depend on the processing

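The counts of open tRNA genes kept the sign of SMG minus NG under all settings and passed the threshold of 0.05 under none. The exception in sign was chromosome 1, where leaving out libraries gave differences of -2.17 (without NG 1) to 3.33. Over all chromosomes the difference ran from 0.167 (without NG 1) to 16.2 with a library left out, and from 6.33 to 12 in the other settings. The percentile difference ran from -1.18 (without SMG 3) to 2.5. The count open in all 6 was 103 to 139 over all settings. Genes open in all SMG libraries and no NG library numbered 0 with extensions of 500 or 1000 bp or an overlap of 50 bp, 2 with equal numbers of peaks, and 1 to 3 with a library left out, where the NG counterpart was 0 to 1. With a library left out, genes open in a larger share of SMG libraries numbered 28 to 48, and of NG libraries 15 to 29. Both extremes of 28 and 29 came without NG 1, where the lean of 37 against 13 turned to 28 against 29. Among the values of single genes, 129 stayed, 21 moved and 0 reversed. All 21 that moved were differences in open libraries at the genes named for differing by 2 or more. A score percentile counted as stayed if it shifted by less than the SD of that gene over libraries. TRK-CTT2-2, for example, went from 49.2 to 57.0 with equal numbers of peaks. Percentiles were ranked once on the full lists, so most could not change and their staying carries little weight. Values of single genes were not recomputed with a library left out. At TRA-AGC8-2 and TRW-CCA3-3 the difference fell to 0 with 500 and 1000 bp, and at TRG-TCC3-1 with 1000 bp. Families whose groups did not overlap numbered 0 with extensions of 0 or 500 bp or an overlap of 50 bp, and 1 to 2 with a library left out. With 5 libraries the sign-flip test cannot go below 0.0625, which all its contrasts then had: chromosome 6 minus other chromosomes -33.2 to -32.9 points, chromosome 1 minus other chromosomes -18.6 to -16.8, and tRNA genes minus miRNA genes 27.3 to 28.7, snoRNA genes 31.0 to 32.4 and snRNA genes -5.04 to -3.82. The snRNA contrast was -1.75 (p = 0.0625, exact permutation) at 500 bp and reversed to 1.06 at 1000 bp, and the cause was not tested. Same-numbered libraries did not deviate together (correlations -0.00151, 0.0199 and -0.01), and the labels do not state whether the numbers mark pairs. With the replicate number as a block the difference was 9.33 genes by construction (exact sign-flip permutation, p = 0.5). The smallest p that 3 pairs allow is 0.25, so this setting could not bring any result under 0.05. Depth is unknown, and with 3 libraries a group and an unadjusted minimum of 0.1 no group difference could pass.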
